A study of Drosophila melanogaster with 2 samples.

Results

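The genes described here are 50 fly genes of DNA replication and the cell cycle, listed by name and function and not ranked by a measured value. The list was chosen with earlier results of these data known. All 50 were found in the annotation among 13968 protein-coding genes on the main chromosome arms. Each gene was scored by peaks of pan, the fly TCF that carries Wingless (Wnt) signals to DNA. The peaks came from chromatin immunoprecipitation and sequencing with an antibody to GFP in transgenic flies that carry pan fused to enhanced GFP. The material was whole Drosophila melanogaster embryos collected from 0 to 24 h, in 1 group with 2 biological replicates, so every stage and cell type of embryogenesis is mixed in it. The promoter that drives the fusion is not given in the labels. Control libraries were not analysed here, and the specificity of single peaks to pan was not tested.

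A gene is called bound below when a summit of the pooled conservative peak list lies in its body or within 2 kb either side. It is called bound at its promoter when a summit lies within 1 kb of an own transcription start site (TSS). That list held 6366 peaks, 6359 of them on the main arms. The thresholded list of replicate 1 held 4557 and that of replicate 2 held 5356. Peak signal is the authors' own value on a scale that is not given, so it ranks peaks within a list and carries no error of its own. Depth is unknown from these files. With 1 group there is no second condition to test against, so the shares below are descriptions and no p-value is given.

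A cell licenses its origins when the origin recognition complex (ORC) and Cdt1, which is dup in the fly, load the MCM helicase onto DNA. Cyclin-dependent kinases then fire the origins with the help of GINS, and later drive mitosis. E2F factors turn on the genes of S phase and the retinoblastoma proteins hold them off, while DREF acts through the DNA replication-related element (DRE), a sequence known from the promoters of many fly replication genes. In the early fly embryo the nuclei divide rapidly on maternal products, and later divisions wait for transcription of the Cdc25 phosphatase gene stg.

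The sequence around the summit is shown first for 5 bound promoters. They hold the strongest promoter peak (mei-41), a summit within 1 kb of the TSSs of 2 replication genes (Mcm2), and some motif matches (Cdk1, grp and Dref). Matches at promoter summits of dpa, Dp, dup and E2f2 are named further below and not printed. Capitals mark a TCF core match in Cdk1 and grp and the 6-letter DRE core in Dref. Each runs 5′ to 3′ on the strand of its gene, within 50 bp of the summit and outside every annotated exon. They were read from the RefSeq Release 6 assembly, which is dm6, at chrX:16391489-16391589, chr3R:8264857-8264957, chr2L:10386419-10386519, chr2L:16684402-16684497 and chr2L:9967230-9967312 in the order below.
mei-41: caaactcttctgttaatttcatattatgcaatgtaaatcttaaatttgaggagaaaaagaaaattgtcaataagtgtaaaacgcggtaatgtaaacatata
Mcm2: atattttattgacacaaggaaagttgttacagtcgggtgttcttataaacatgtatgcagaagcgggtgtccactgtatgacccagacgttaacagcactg
Cdk1: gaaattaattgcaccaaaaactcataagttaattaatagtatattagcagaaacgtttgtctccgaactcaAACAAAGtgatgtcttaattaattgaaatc
grp: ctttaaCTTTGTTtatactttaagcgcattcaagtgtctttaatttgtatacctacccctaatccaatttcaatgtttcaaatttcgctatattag
Dref: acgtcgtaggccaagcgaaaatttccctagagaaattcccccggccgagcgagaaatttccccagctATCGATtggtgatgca

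The bases before the TSS are shown for 4 genes that hold a complete DRE, marked in capitals. These genes had no summit in the pooled conservative list or in either replicate's thresholded list. Orc2 also fits this description and is not printed. The printed bases lie at chr2L:13829742-13829836, chrX:15857824-15857943, chr3L:11833579-11833698 and chr3R:20735503-20735622, end at the base before the TSS and again leave out annotated exons.
Orc5: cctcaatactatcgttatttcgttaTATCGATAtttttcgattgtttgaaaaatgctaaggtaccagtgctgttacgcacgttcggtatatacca
Myb: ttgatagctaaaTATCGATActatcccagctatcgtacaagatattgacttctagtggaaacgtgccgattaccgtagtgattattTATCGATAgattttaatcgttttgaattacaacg
CycA: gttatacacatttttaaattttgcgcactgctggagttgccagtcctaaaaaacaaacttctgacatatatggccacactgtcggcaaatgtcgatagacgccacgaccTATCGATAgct
Cdk2: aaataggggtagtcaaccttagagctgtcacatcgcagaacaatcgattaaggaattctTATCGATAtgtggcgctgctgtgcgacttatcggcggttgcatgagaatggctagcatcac

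Of the 50 genes, 27 (54.0%) were bound, against 39.7% of all protein-coding genes and 42.3% of genes of like length. At the promoter 18 (36.0%) were bound, against 25.6% of all genes and 28.4% of genes of like length. A further 9 had summits only farther from their own TSSs, and 23 had none. In replicate 1 alone 23 genes were bound, where all genes stood at 32.4%, and 17 at the promoter, where all genes stood at 20%. In replicate 2 alone the counts were 28, against 36.5% of all genes, and 22, against 23.3%. The longer pooled list gave 28 and 21, with 42.5% and 28.0% of all genes. The conservative peaks above the median signal gave 19 and 12, with 26.8% and 16.1% of all genes. The share of these genes was above that of all genes in each of these lists.

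**Figure D1:**
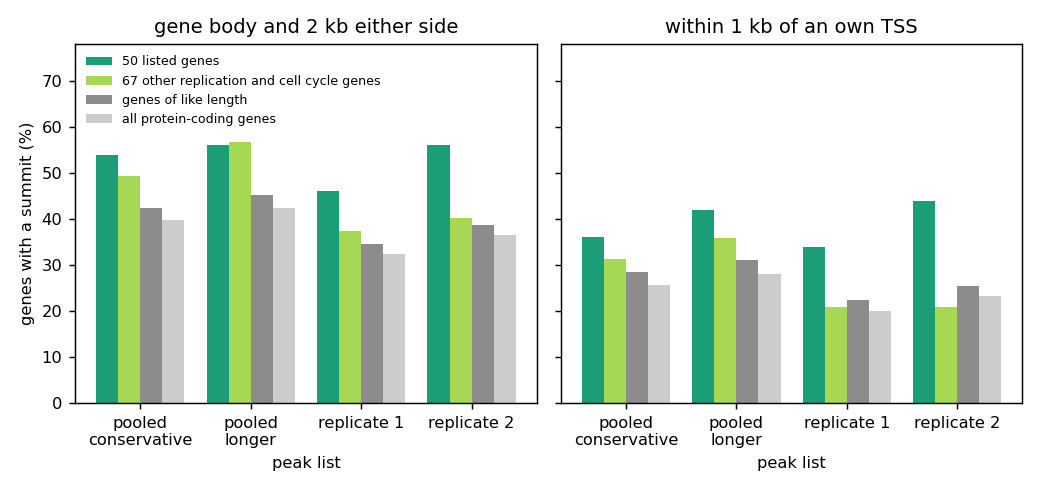
Share of genes with a summit (%) in 4 peak lists, in the gene body and 2 kb either side (left) and within 1 kb of an own TSS (right). Bars give the 50 listed genes, 67 other replication and cell cycle genes, genes of like length and all protein-coding genes. The listed genes stand at 54.0% and 36.0% in the conservative list, above genes of like length at 42.3% and 28.4%.

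Many of these genes sit close to a neighbour. Another protein-coding gene had a TSS within 1 kb of an own TSS at 33 of the 50 genes (66%), against 42.8% of all protein-coding genes. Of those 33, 14 (42.4%) were bound at the promoter, against 37.7% of all such genes. Of the 17 without a near neighbour 4 (23.5%) were bound there, against 16.5%. When a promoter summit counted only if it was nearer to an own TSS than to that of any other protein-coding gene, 10 of 50 genes (20%) were left, against 18.2% of all genes and 20% of genes of like length. With the gene body alone 8 of 50 (16.0%) held a summit, against 15.2% of all genes. By these last measures the listed genes were close to the background. A peak between 2 promoters cannot be given to either gene from these files.

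The 50 genes held 38 distinct summits in all. Of these, 21 were upstream of the gene, 7 downstream, 7 in introns and 3 in UTR exons. Within 1 kb of an own TSS there were 21 summits, of which 19 were upstream of that TSS. Counted as pairs of a gene and a summit, 90.5% were upstream among these genes and 77.2% among all genes, and the median distance was 178 and 190 bp. Of the same pairs, 76.2% had a TSS of another gene within 1 kb, against 55.0% for all genes. The summit just inside the 1 kb limit was that of grp at 938 bp, and those just outside were mip120 at 1029 bp, Mcm3 at 1094 bp and PCNA at 1119 bp. Median GC content within 50 bp of the summits was 33.7%, against 35.6% for all promoter summits.

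**Figure D2:**
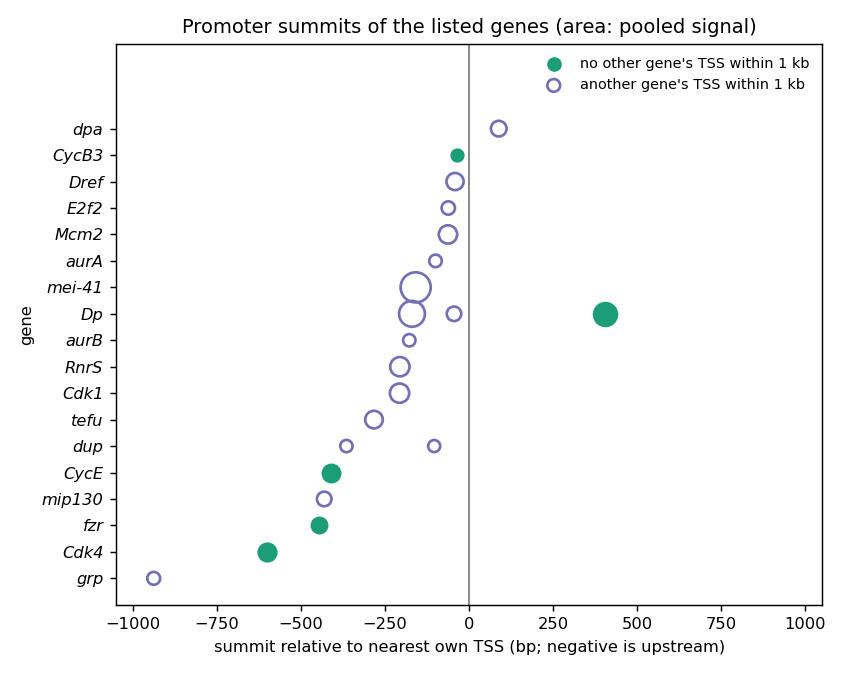
Position of the 21 promoter summits relative to the nearest own TSS (bp, negative is upstream), a row per gene, with the area of each circle showing pooled signal. Open circles have a TSS of another gene within 1 kb. Only dpa and a summit of Dp lie downstream of the own TSS.

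Each of the 18 genes was given its strongest promoter peak. The median pooled signal was 170, from 92.5 to 555.6, and the median over the 3571 protein-coding genes with such a peak was 148. It lay above that median in 11 of the 18 genes. The signal in replicate 2 was 0.909 times that in replicate 1 at the median, from 0.580 to 1.68 times. Across the 18 peaks the replicates had a Spearman rho of 0.779, as a description of peaks that share their libraries. Of the 18 peaks, 13 were in both replicates' passing lists. Those of dup, CycB3 and aurA were only in that of replicate 1, that of aurB only in that of replicate 2, and that of grp in neither. Of all 21 promoter summits 71.4% were in both lists, against 56.0% of all promoter summits.

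**Figure D3:**
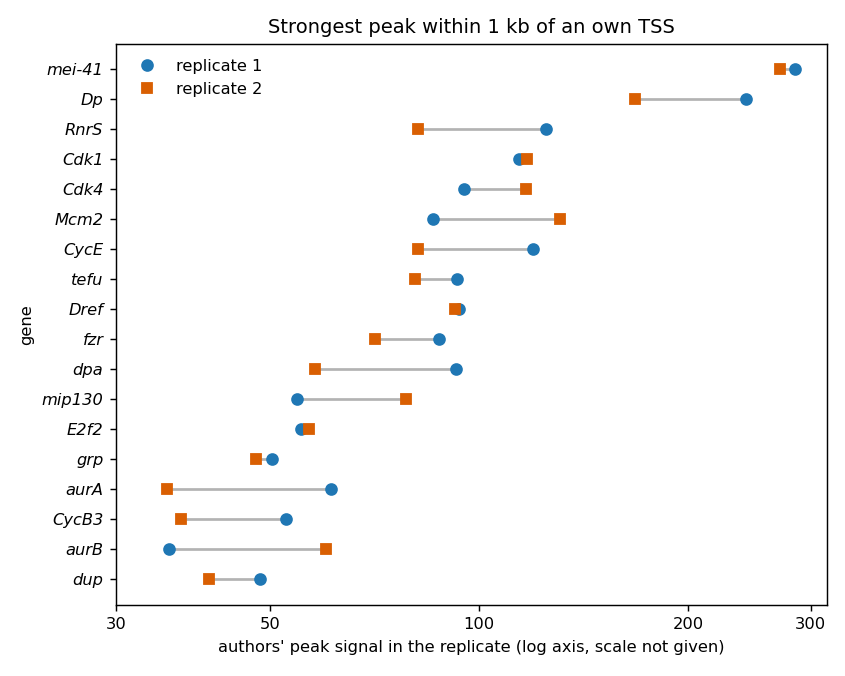
Authors' peak signal in replicate 1 (circles) and replicate 2 (squares) on a log axis, for the strongest peak within 1 kb of an own TSS of each of the 18 genes. The replicates give mei-41 and Dp the highest signals, and the ratio of replicate 2 to replicate 1 runs from 0.580 to 1.68.

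**Figure D4:**
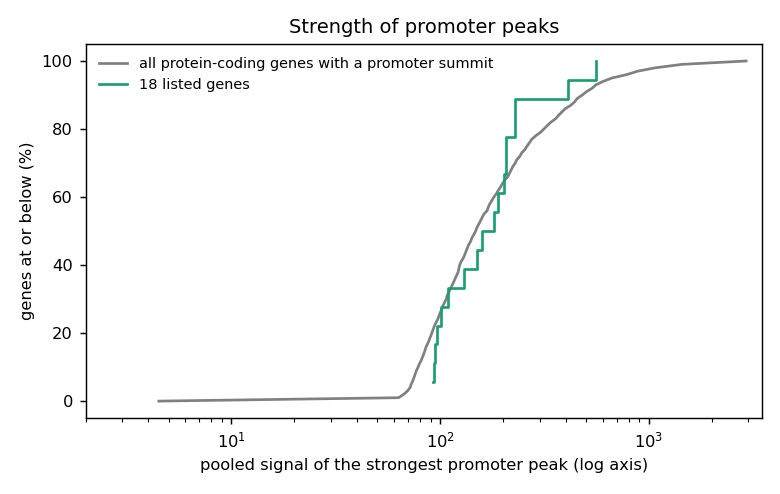
Cumulative share of genes (%) by the pooled signal of the strongest promoter peak (log axis), for the 18 listed genes and for all 3571 protein-coding genes with such a peak. The listed genes run from 92.5 to 555.6, with a median of 170 against 148.

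The MCM helicase opens DNA at origins and travels with the fork. Among its 6 genes Mcm2 and dpa, which encodes Mcm4, were bound at the promoter, Mcm3 was bound farther away, and Mcm5, Mcm6 and Mcm7 had no summit. The Mcm2 summit lay 63 bp upstream of its TSS, where replicate 1 gave 85.7 and replicate 2 gave 130.8. The same summit was 456 bp from the TSS of RPA1, which encodes the large subunit of the single-strand DNA binding protein of the fork and is a replication gene outside the list. At dpa the promoter summit had 92.5 and 58.1, 88 bp inside its own TSS and 90 bp from that of didum. The Mcm3 peak, with 88.4 and 72.7, was 65 bp from the TSS of its neighbour Rnp4F and held the only complete DRE within 50 bp of any of the 38 summits. None of the MCM summits was in a coding exon.

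None of the 5 ORC genes (Orc1, Orc2, Orc4, Orc5 and Orc6) was bound. From genes of like length 1.72 would be, and 1.14 at the promoter. No ORC gene was bound in the longer pooled list or in either replicate's own list. Even in the pooled ranked list, which keeps peaks short of the threshold, their best peaks within 1 kb of a TSS were weak, with signals of 30.4 at Orc1, 30.1 at Orc2, 33.7 at Orc4, 35.8 at Orc5 and 16.6 at Orc6. Those of Orc1 and Orc6 were matched by a peak of replicate 1 alone, and that of Orc2 by a peak of replicate 2 alone. With 5 genes, this count is a description only.

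The licensing factor dup, which is Cdt1, had 2 promoter summits, while geminin, its inhibitor, had none. The dup peak 365 bp upstream of the outer TSS had a pooled signal of 92.5, with 48.4 in replicate 1 and 40.8 in replicate 2. It was 96 bp from a TSS of the kinase gene SRPK. The other dup peak, 104 bp upstream of an inner TSS and in a UTR exon, had a pooled signal of 89.1. It was higher than the first in each replicate, at 53.1 and 45.9. It was in both replicates' passing lists and lay 6 bp from an SRPK TSS. At geminin a ranked peak 39 bp from the TSS, with a pooled signal of 78.7, stood at an irreproducible discovery rate (IDR) of 0.0232 and did not pass. GINS joins the helicase when an origin fires. Of its genes, Psf1 had a weak summit 1408 bp upstream (35.3 and 36.4) that was in neither replicate's passing list, and Psf2 and Psf3 had none. Psf3 had a ranked peak of 23.5 in replicate 1 and 65.3 in replicate 2, and its promoter summit passed in the longer pooled list and, of the replicates, in the second only.

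PCNA is the sliding clamp of the polymerases, and ribonucleotide reductase, made of the RnrL and RnrS subunits, supplies deoxynucleotides. RnrS was bound 206 bp upstream of its TSS, with 124.7 in replicate 1 and 81.5 in replicate 2, and RnrL had no summit and no ranked peak within 1 kb of its TSS. The PCNA peak had 79.7 and 148.4, and its summit lay 1119 bp upstream of PCNA and 23 bp from the TSS of the ribosomal protein gene RpS18. It was thus counted for PCNA only through the 2 kb flank.

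Among E2F and retinoblastoma genes, Dp, the partner through which E2F proteins bind DNA, had 3 summits, as many as any of the 50 genes. They were 45 bp upstream of a TSS, 170 bp upstream of another, and 404 bp downstream of a TSS. The strongest had 241.8 in replicate 1 and 167.5 in replicate 2, the next 182.1 and 155.0, and the one nearest a TSS 37.6 and 81.7. The last was 50 bp from the TSS of Fsn and passed in replicate 2 alone. The activator gene E2f1 also had 3 summits but none within 1 kb of an own TSS. They lay 1748 bp upstream and 4752 and 10575 bp inside, and the strongest, in an intron, had 104.8 and 78.5. The upstream summit was 353 bp from the TSS of Archease. The repressor gene E2f2 had a promoter peak of 55.3 and 56.9 that was 6 bp from the TSS of Mpp6, and a stronger one of 115.8 and 129.3 farther away, at the promoter of its neighbours Coq3 and Pld3. Rbf and Rbf2, the retinoblastoma genes, had no conservative summit, and Rbf2 had a promoter peak in the list of replicate 2 alone.

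The Myb-MuvB complex holds developmental and cell cycle genes off or on. Its gene mip130 was bound 431 bp upstream, with 54.6 in replicate 1 and 78.4 in replicate 2, and the summit was 171 bp from the TSS of Edem1. The mip40 peak, with 134.0 and 162.1, was 1533 bp upstream of its own TSS, with no other protein-coding TSS within 1 kb. The mip120 summit was in an intron 1029 bp from its own TSS and 98 bp from that of mEFTu1, with 62.4 and 41.3. That peak was in the passing list of replicate 1 alone, where its summit fell inside the 1 kb limit. The mip120 promoter summit in the list of replicate 2 was of another peak, with 47.3. Myb itself had no summit, and its best ranked peak, 38 bp from the TSS, had 21.3 and 36.4.

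Dref, which encodes DREF, was bound 42 bp upstream of its TSS, with 93.6 in replicate 1 and 92.2 in replicate 2. The summit was the same 42 bp from the TSS of RpL13, a ribosomal protein gene on the other side. The window printed above for Dref is the whole space between those TSSs.

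Of the cyclin genes, CycE, the cyclin of S phase entry, and CycB3, a mitotic cyclin, were bound at the promoter. The CycE summit was in an intron, 411 bp upstream of an inner TSS, with 119.7 in replicate 1 and 81.7 in replicate 2. No other gene had a TSS within 1 kb of it. CycB3 had 52.7 and 37.2, 35 bp upstream, also with no neighbour within 1 kb. By pooled signal the strongest peak counted for any of the 50 genes was at CycB, a mitotic cyclin, at 756.0, with 373.1 and 380.0, but it was past the 3′ end of the gene and 3322 bp from its nearest own TSS. CycA and CycD had neither a conservative summit nor a ranked peak within 1 kb of a TSS.

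Cdk1, the mitotic kinase, and Cdk4, the partner of CycD, were bound at the promoter, and Cdk2, the partner of CycE, was not bound. Cdk1 had 114.2 in replicate 1 and 117.3 in replicate 2, 207 bp upstream and 193 bp from the TSS of mRpS7, a mitochondrial ribosomal protein gene. Cdk4 had 95 and 116.8, 601 bp upstream, with no neighbour within 1 kb. A further summit 1746 bp upstream of Cdk1 was 97 bp from the TSS of da, a bHLH factor gene. The Cdc25 phosphatases remove the inhibitory phosphate from Cdk1. Both of their genes, stg and twe, had a summit only downstream of the gene, stg with 39.1 and 64.9. The twe peak, with 109.7 in replicate 2, had no matching peak in replicate 1 and was 115 bp from the TSS of a neighbour. The inhibitor genes dap and Myt1 had no conservative summit, and dap had a promoter peak in the list of replicate 2 alone.

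Of the activators of the anaphase-promoting complex, fzr, which is Cdh1, was bound and fzy, which is Cdc20, was not. The fzr promoter peak had 87.5 in replicate 1 and 70.9 in replicate 2, 446 bp upstream. A peak with 375.2 and 316.0, a pooled signal of 707.4, lay past its 3′ end, 305 bp from the TSS of CG3009. Of the mitotic kinases, aurA and aurB, the Aurora kinases, were bound at the promoter and polo was not. At aurA the signal was 61.2 and 35.5, 100 bp upstream and 219 bp from the TSS of CG3281. At aurB it was 35.7 and 60.1, 178 bp upstream and 264 bp from the TSS of Stam. The promoter summit of aurA was in the passing list of replicate 1 and that of aurB in that of replicate 2. For polo a promoter peak passed in replicate 2 alone.

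The kinases of the DNA damage and replication checkpoints were bound at the promoter in 3 of 4 genes, where 1.48 would be from genes of like length. By the gene body and 2 kb either side the count was also 3, where 2.24 would be. All 3 summits were nearer to a TSS of another gene than to an own one. With 4 genes, these counts are descriptions only. ORC is given above, and the other roles follow as the promoter count, with that from genes of like length in brackets. MCM had 2 (1.63), licensing 1 (0.54), GINS 0 (0.53), clamp and nucleotide supply 1 (0.72) and Dref 1 (0.29). E2F and retinoblastoma genes had 2 (1.60), Myb-MuvB 1 (1.25), cyclins 2 (1.70), and cyclin-dependent kinases and their regulators 2 (1.93). Activators of the anaphase-promoting complex had 1 (0.64) and mitotic kinases 2 (0.72). The gene mei-41, which is ATR, had the strongest promoter peak of all 50 genes, at chrX:16391439-16391656, with 285.2 in replicate 1 and 270.8 in replicate 2, 159 bp upstream. It ranked 245 among the conservative peaks. Its summit was 101 bp from the TSS of TH1, which encodes a subunit of the NELF elongation factor. The gene tefu, which is ATM, had 93.0 and 80.8, 283 bp upstream and 168 bp from the TSS of Hsc70-4, a chaperone gene. The weakest was grp, which is Chk1, with 50.3 and 47.7 in an intron 938 bp upstream of a TSS and 444 bp from the TSS of CG31807. That peak was in neither replicate's own list, though the list of replicate 2 held another summit within 1 kb of a grp TSS. For lok, which is Chk2, there was no summit. Of genes outside the lists that share a peak with these promoters, TH1 had the strongest, followed by Fsn at Dp with a pooled signal of 410.3 and CG34231 at RnrS with 228.9.

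Of the 23 genes with no conservative summit, 19 had a ranked peak within 1 kb of a TSS. Their pooled signals ran from 16.6 to 90.1 with a median of 40.6. In any of the other 3 thresholded lists, 4 of the 23 had a summit, namely Psf3, Rbf2, dap and polo. Psf1, mip120 and CycB also had a promoter summit in such a list. With these, 25 of the 50 genes had a promoter summit in at least 1 of the 4 lists. In both replicates' own lists at once 15 had one. The share of all genes was not computed for these combined lists, so the counts cannot be read as high or low. Adding lists can only raise such a count, for any set of genes. The 23 genes had a median length of 2.71 kb, and the 18 bound at the promoter 3.91 kb.

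Motifs were searched in the bases from 250 before to 50 after each TSS, on both strands. The DRE, TATCGATA, was in a promoter of 11 of the 50 genes (22.0%), against 10.2% of all protein-coding genes. The E2F sites TTTCCCGC and TTTGGCGC were in 15 (30%), against 5.06%. The TCF core was searched as CTTTGAA and as CTTTGAT, and likewise with the letters CTTTGTA and with those of CTTTGTT. It was in 15 (30%), against 27.3%. Split by peaks, a DRE was in a promoter of 2 of the 18 genes bound at the promoter (11.1%), mei-41 and Cdk4. Promoters were pooled over all TSSs of a gene. The Cdk4 DRE was before another TSS than that of its promoter summit, 1917 bp from that summit. Among the 32 others, 9 (28.1%) held a DRE. Those 9 were Orc2, Orc5, Psf1, Psf3, PCNA, Rbf2, Myb, CycA and Cdk2. Over all genes the share ran the other way, 15.3% of genes bound at the promoter and 8.42% of the others. A TCF core was in 9 of the 18 (50%) and in 6 of the 32 (18.8%), against 31.8% and 25.8% over all genes. Of the 9, only dpa, Dp and Cdk1 had the site within 50 bp of a promoter summit. In aurA the nearest was 61 bp away. The sites of Mcm2, mei-41, CycB3, CycE and E2f2 were 146, 182, 210, 269 and 691 bp away. E2F sites were in 33.3% and 28.1%, against 6.64% and 4.52%. These are counts of letters in small sets of genes and no test was made of them.

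**Figure D5:**
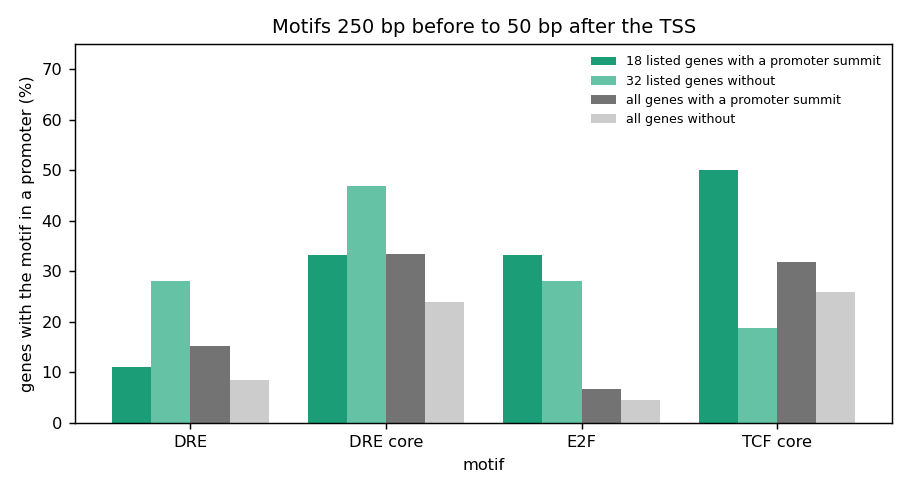
Share of genes (%) whose promoter, 250 bp before to 50 bp after a TSS, holds each motif. Bars split the listed genes, and all protein-coding genes, by a summit within 1 kb of an own TSS. The DRE is at 11.1% of the 18 bound listed genes and 28.1% of the 32 others, and at 15.3% and 8.42% of all genes.

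At the summits themselves no DRE and no E2F site lay within 50 bp of any of the 21 promoter summits, against 2.95% and 0.785% of the 3185 promoter summits of all genes. These zeros did not hold in every list or window. An E2F site was at 2 of 26 summits in the list of replicate 2 (7.69%, against 1.07%), at 1 of 25 in the longer pooled list (4.0%, against 0.784%) and, within 100 bp, at 2 of the 21 (9.52%, against 1.92%). A DRE was at 1 of 26 summits in the list of replicate 2 (3.85%, against 2.46%). The DRE core, ATCGAT, which is contained in the DRE, was at 3 (14.3%), against 6.94%, namely a summit of dup and those of E2f2 and Dref. The TCF core was at 4 of 21 (19%), against 8.13%, and within 100 bp at 5 of 21 (23.8%, against 15.3%). In the list of replicate 1 it was at 5 of 23 (21.7%, against 8.38%), and in that of replicate 2 at 3 of 26 (11.5%, against 7.50%). The 4 in the conservative list were dpa, a summit of Dp, Cdk1 and grp. At dpa the middle of the site was 8 bp from the summit, at Dp 25 bp and at Cdk1 24 bp. In mei-41 the complete DRE began 19 bp before the TSS. Its middle was 144 bp from the summit, outside the window printed above.

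Other replication and cell cycle genes, 67 of them, were scored the same way. Of these 33 (49.3%) were bound, against 41.4% of genes of their lengths, and 21 (31.3%) were bound at the promoter, against 28.2%. In each replicate's own list 14 of 67 (20.9%) were bound at the promoter, against 20% of all genes in replicate 1 and 23.3% in replicate 2. By role 12 of 21 genes of polymerases, primase and clamp loading were bound, 9 of 12 of ubiquitin ligases and 7 of 19 of mitotic checkpoint and segregation. Of further cyclins and Myb-MuvB subunits 3 of 6 were bound, and of origins and forks 2 of 9. At the promoter the counts were 7, 4, 6, 2 and 2 in the same order. Over all protein-coding genes 39.7% were bound, and 25.6% at the promoter. Shares from genes of like length were not computed by role, so these counts are descriptions only. The strongest promoter peak was that of chif, which activates the Cdc7 kinase, with 451.5 in replicate 1 and 475.2 in replicate 2. Next were SkpA (295.5 and 364.9), PolD2 (257.7 and 283.3), Cdc16 (265.5 and 260.4) and lin-52 (281.7 and 142.1). The chif and SkpA summits were just inside the 1 kb limit, 969 and 966 bp from an own TSS. That of SkpA was 210 bp from the TSS of Hmt4-20. The lin-52 summit was 549 bp from its own TSS and 67 bp from that of CG15771. Those of PolD2 and Cdc16 were 123 and 88 bp upstream, nearer to the own TSS than to another.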

How the data were processed

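Peak lists of 2 replicates and of both pooled were deposited on dm6, per the file headers. The aligner, the peak caller and the scale are not given in the sources used here. The authors' signal and −log10 q of each peak, and the −log10 global IDR of ranked peaks, were used as deposited. A summit was the peak start plus the deposited offset, and TSSs were read from the annotation of Ensembl release 115, built on that assembly. Replicate values are those of the ranked peak that overlaps by 50% of the shorter. Genes of like length means the mean, over the genes, of the share in 20 length bins, the list left out. Scripts in Python 3.11.15 with pandas 2.3.3 were tested on simulated summits. The genes and lists were chosen with earlier results of these data known. Values are given for all genes bound at the promoter (25 were allowed and 18 exist), those with most summits, the 5 strongest other genes and the 3 strongest neighbours. Of the other gene names, ctf4 had no match and lat matched more than 1 gene, and neither is counted. No test was run. Alternatives covered peak lists, windows, backgrounds and motif windows.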

Additional observations from a re-analysis of the deposited data

How the results depend on the processing

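Across 57 alternatives, 51 left their result within 1.5 times of the value given or within its interval or spread. With the gene body alone 8 of the 50 genes held a summit. With summits nearer to an own TSS than to another 10 were bound at the promoter. With the conservative peaks above the median signal, 20 other replication and cell cycle genes were bound and 17.9% of genes of like length at the promoter. From 250 bases before to 50 after a TSS a DRE was at 22.0% and an E2F site at 30%, against 0.00% within 50 bp of the promoter summits, a smaller window. Without replicate 1 the TCF core was at 11.5% of the promoter summits. With either replicate left out the bound genes ran from 23 to 28 and those bound at the promoter from 17 to 22. Restoring 151 passing peaks absent from the conservative list, an alternative chosen after seeing the data, left 27 and 18. No paired analysis was possible because there is 1 group. Depth is unknown.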
